A study of Mus musculus with 2 samples.

Results

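Target genes of the transcription factor ATF4 are described here across the cell classes of CMT167R tumours. Of the 32285 genes listed in each library, 9 were taken by symbol: Atf4 itself, Ddit3, Trib3, Chac1, Asns, Sesn2, Gdf15, Vldlr and Psat1. The symbol Ddit3 stands for 2 gene identifiers, of which ENSMUSG00000116429 had 0 UMIs in every barcode, so ENSMUSG00000025408 was used. The genes were selected on results of these libraries, among them the ratio of PKCi to control in the tumour cells, so that ratio is given below as a description and supports nothing. CMT167R is a derivative of the mouse lung carcinoma line CMT167 that the labels call resistant to anti-PD1, and 1e6 cells were injected under the skin of each C57BL/6 mouse. The PKCi group received 3 mg/kg of the compound labelled PKCi daily by intraperitoneal injection, and the control group received solvent. Tumours were taken when those of the control group had reached 400 mm3. Each group is 1 droplet library, the genotype is given as wild type, and the number and age of the mice behind a library are not given in the sources used here, so no difference between PKCi and control has a replicate check and no p-value is given.

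The integrated stress response starts with kinases that phosphorylate the translation factor eIF2alpha in reply to amino acid shortage, misfolded protein in the endoplasmic reticulum (ER), double-stranded RNA or lack of haem. General translation then slows, while the Atf4 mRNA is translated more, so the level of Atf4 mRNA is not a measure of ATF4 protein. ATF4 dimerises with other bZIP proteins, binds composite C/EBP-ATF sites and activates genes for amino acid uptake, amino acid synthesis and tRNA charging, together with feedback and cell death genes. In tumours the response is known for letting cells grow through nutrient and ER stress.

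The PKCi library held 7457 barcodes and the control library 6688, with totals of 229219749 and 222641855 UMIs (unique molecular identifiers, each counted as 1 captured mRNA molecule). After filters, 7078 PKCi and 6269 control cells were kept, with medians of 29551 and 32992 UMIs. The libraries shared 20 barcode sequences, 18 of them among kept cells. A main population of 5330 PKCi and 4871 control cells carried the keratin Krt8 at 482 CPM in PKCi and 380 CPM in control, where CPM is UMIs per 1e6 UMIs summed over a class. Vim was at 2696 and 2791 CPM there and the homeobox gene Rhox5 at 469 and 540 CPM, while the leukocyte gene Ptprc was at 1.29 and 1.03 CPM. The epithelial markers Epcam (0.00486 and 0.00495 CPM) and Krt19 (0 and 0.00495 CPM) were at or near 0, and Krt18 was low (4.61 and 6.79 CPM). The label of carcinoma cells thus rests on Rhox5 and on Krt8, which was itself a condition for the class. The cells are therefore called the main population. Marker lists named 496 PKCi and 572 control cells as monocyte-like, 498 and 163 as macrophage-like, and 188 and 294 as neutrophil-like. Fibroblast-like, endothelial-like, dendritic-like, NK-like and T-like classes held between 19 and 119 cells in a library.

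The RefSeq promoters of the members were searched for composite sites, because ATF4 heterodimers bind such an element. The letters were TGATGNAA, which 3 of the 9 genes hold, and TGNNGCAAT, on both strands, in the 250 bases before each start site. The second pattern was chosen after the member promoters had been read, and with it 5 of the 9 genes, in 5 of 12 windows, hold either. Of 32851 mouse promoters of this length in RefSeq on GRCm38.p6, 3.45% held TGATGNAA, 1.79% held TGNNGCAAT and 5.001% held either. The stretches below run 5′ to 3′ on the strand of the gene, and capitals mark the matched letters or their reverse complement.
Trib3, chr2:152344061-152344123, minus strand: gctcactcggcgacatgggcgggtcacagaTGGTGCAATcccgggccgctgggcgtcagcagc
Chac1, chr2:119350992-119351086, plus strand: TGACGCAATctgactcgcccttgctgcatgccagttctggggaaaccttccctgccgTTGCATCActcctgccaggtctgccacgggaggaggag
Asns, chr6:7693214-7693243, minus strand: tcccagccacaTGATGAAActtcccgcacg
Psat1, chr19:15925157-15925225, minus strand: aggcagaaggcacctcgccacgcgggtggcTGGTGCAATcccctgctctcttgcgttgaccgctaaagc
The match lay 33 bases before the start in Trib3, 23 in Asns and 136 in Psat1, and the pair in Chac1 lay at 250 and 193 bases. The Psat1 stretch lies inside the longer GENCODE gene and outside its exons, and the Asns stretch is shown short because it overlaps a GENCODE exon. Vldlr had a match in the second of its 2 windows. The windows of Atf4, Ddit3, Sesn2 and Gdf15 held neither string, which says only that these letters are not in those windows. A match is a description of the letters and not of binding.

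In the main population, Gdf15 and Sesn2 had the largest ratios of PKCi to control among the members. Gdf15 encodes a secreted stress cytokine whose receptor GFRAL acts in the hindbrain to lower food intake, and lies on chromosome 8 (70629393 to 70632456, minus strand, GRCm38). It was at 90.4 CPM in PKCi (95% interval 89.1 to 91.7, 18599 UMIs) and at 40.9 CPM in control (40.0 to 41.8, 8270 UMIs), a ratio of 2.21 (2.15 to 2.27). Sesn2 encodes sestrin 2, a leucine-binding protein that restrains mTORC1, and lies on chromosome 4 (132492032 to 132510501, minus strand). It was at 60.6 CPM in PKCi and 29.5 CPM in control, a ratio of 2.06 (1.99 to 2.12). The predicted gene Gm12981 overlaps Sesn2 on the same strand, so reads there may have been left out or split in counting. Intervals treat UMIs as independent molecules and cover counting error only.

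The feedback and death genes downstream of ATF4 were next. Chac1, which encodes an enzyme that breaks down glutathione and lies on chromosome 2 (119351229 to 119354381), was at 9.68 CPM in PKCi and 5.33 CPM in control, a ratio of 1.81 (1.68 to 1.956) and the lowest level of the detected members. Trib3, which encodes a pseudokinase that binds ATF4 and AKT and also lies on chromosome 2 (152337422 to 152344032), was at 39.5 CPM in PKCi and 23.2 CPM in control, a ratio of 1.701 (1.64 to 1.76). Ddit3, which encodes the bZIP factor CHOP and lies on chromosome 10 (127290774 to 127296288), was at 43.9 CPM in PKCi and 34.2 CPM in control, a ratio of 1.29 (1.246 to 1.327). The gene Mars lies over Ddit3 on the other strand, and whether the counting used strand is not given in the sources used here.

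Atf4 and the 2 synthesis enzymes showed the smallest ratios at the highest levels. Atf4, on chromosome 15 (80255184 to 80257541), was at 316 CPM in PKCi and 273 CPM in control, a ratio of 1.16 (1.15 to 1.17). Asns, which encodes the enzyme that makes asparagine from aspartate and glutamine and lies on chromosome 6 (7675169 to 7693254), was at 170 CPM in PKCi and 143 CPM in control, a ratio of 1.19 (1.17 to 1.20). Psat1, whose enzyme catalyses the middle step of serine synthesis and which lies on chromosome 19 (15904678 to 15947337), was at 115 CPM in PKCi and 102 CPM in control, a ratio of 1.13 (1.11 to 1.15). Among cells with fewer than 3 detected G2/M genes the log2 ratio of Atf4 was -0.05 and that of Trib3 0.38, where it was 0.21 and 0.77 over all cells.

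Of the 8 members with at least 50 UMIs, 4 were at least 1.5-fold higher in PKCi and 0 at least 1.5-fold lower. Over the 15727 genes measured in the same way, 3.05% were that much higher and 4.48% that much lower. The median log2 ratio of the 8 genes was 0.56, and that of all genes -0.02. From the highest ratio down, Gdf15 stood at position 110 of 15727, Sesn2 at 145, Chac1 at 233, Trib3 at 308, Ddit3 at 1117, Asns at 1754, Atf4 at 2024 and Psat1 at 2465. Because these genes were chosen with such ratios known, nothing is read from the positions.

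**Figure D1:**
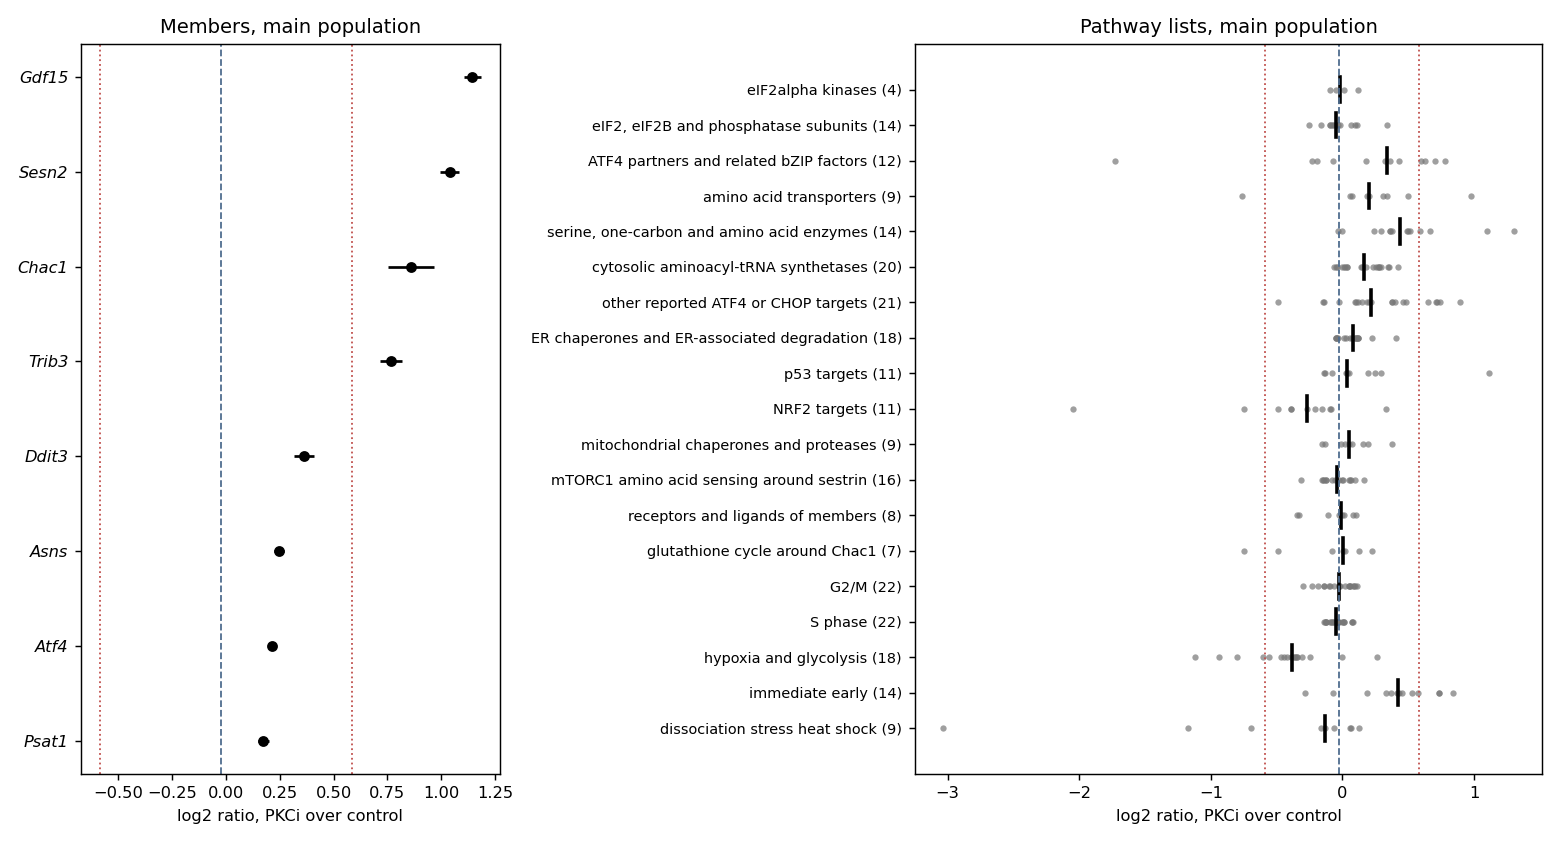
Log2 ratios of PKCi over control in the main population, on the left for each detected member with its 95% counting interval and on the right for each gene of the pathway lists (grey points, number of genes in brackets) with the list median (black bar). The dashed line is the median of all genes at -0.02 and the dotted lines mark 1.5-fold; the members run from 0.17 for Psat1 to 1.14 for Gdf15, and the hypoxia and glycolysis list has the lowest median, -0.38.

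Vldlr, the very-low-density lipoprotein receptor gene on chromosome 19 (27216484 to 27254231), was not detected in the main population. It had 0 UMIs in 5330 PKCi cells and 0 in 4871 control cells, which allows up to 0.0146 CPM in PKCi and 0.0148 CPM in control at a limit of 3 counts. The gene was counted elsewhere in the same tumours. Fibroblast-like cells held 12 UMIs of it in PKCi and 19 in control (26.1 and 39.5 CPM). The endothelial-like class held 7 and 1, and the monocyte-like class 0 and 2.

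The per-cell distributions were read after each main population cell had been thinned to 10000 UMIs, which kept 5067 PKCi and 4761 control cells and left out 263 and 110 shallower ones. Gdf15 was found in 36.3% of PKCi cells (34.9% to 37.6%, exact Clopper-Pearson interval) and 21.6% of control cells (20.4% to 22.8%), and 56.7% and 43.9% of cells had a UMI of it before thinning. Sesn2 was found in 34.0% of PKCi cells and 21.4% of control cells. Trib3 was found in 24.8% and 16.8%, and Chac1 in 7.14% and 4.37%. For each of these genes the share was higher in PKCi, as the CPM was. At 5000 UMIs per cell Gdf15 was in 24.98% of PKCi and 13.7% of control cells of the main population (medians of 35402 and 38236 UMIs before thinning), against 3 of 43 PKCi and 1 of 29 control T-like cells (6.98% and 3.45%, at medians of 4225 and 4745 UMIs before thinning). Krt8, which T-like cells should lack, was in 9.30% of the PKCi and 6.90% of the control ones.

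Gdf15 had the largest variance over its mean of the members. The variance was 4.02 times its mean in PKCi and 2.55 times in control, against 1 for independent counts at a single rate. Cells with 10 or more Gdf15 UMIs numbered 25 in PKCi and 6 in control, and the highest cell held 64 UMIs in PKCi and 17 in control. Sesn2, with 1.79 and 1.51, was closer to even, and Asns was found in 68.1% of PKCi cells and 65.3% of control cells. Atf4 was found in 86.1% and 85.0%, and cells with 4 or more of its UMIs made up 31.6% in PKCi and 26.0% in control.

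**Figure D2:**
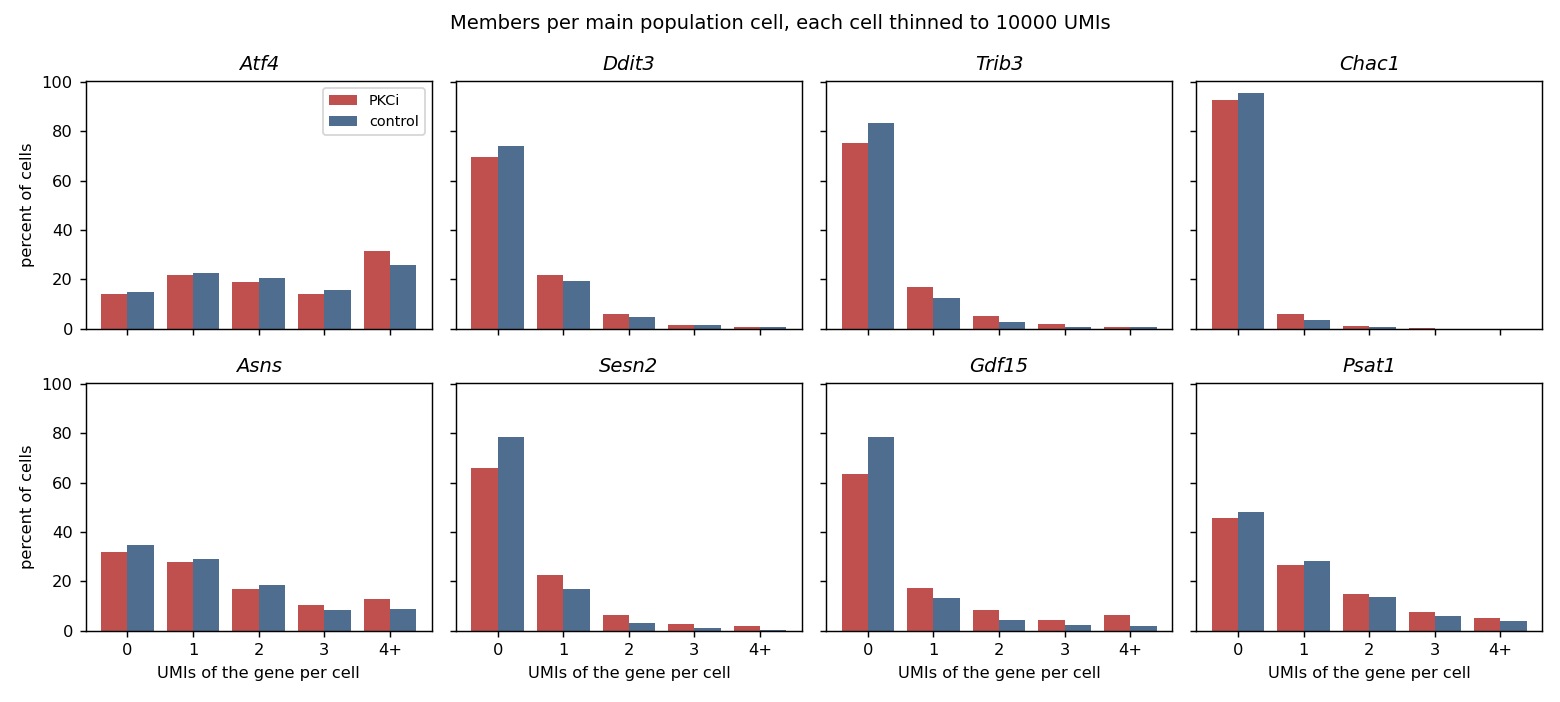
Share of main population cells (vertical axis, percent) with 0, 1, 2, 3 or at least 4 UMIs of each member after thinning every cell to 10000 UMIs, for 5067 PKCi cells and 4761 control cells. Cells without Gdf15 made up 63.7% of PKCi cells and 78.4% of control cells, while cells without Atf4 made up 13.9% and 14.997%.

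Across 9 clusters of the main population with at least 50 cells in each library, the ratio of PKCi to control was over 1 with its interval in all 9 for Gdf15, Sesn2 and Asns. Trib3 was over 1 in 9, with its interval in 8. Chac1 and Psat1 were over 1 with their intervals in 8, and Atf4 and Ddit3 in 7; no member had an interval wholly under 1 in any of them. The ratio of Gdf15 ran from 1.68 to 3.32 and that of Sesn2 from 1.29 to 2.72, while that of Atf4 ran from 0.98 to 1.37. The clusters were drawn with members among the genes used, and clusters of 1 library are not replicates, so these are descriptions.

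Cluster 8, with the highest median depth of the 9 (47514 UMIs) and predicted genes with no given function among its leading genes, had the highest level of every detected member except Asns in both libraries. Atf4 reached 507 CPM there in PKCi and 370 CPM in control, against 166 and 169 CPM in cluster 1, which was led by Ptn and Sema3a. Gdf15 reached 173 CPM in PKCi and 80.1 CPM in control in cluster 8, against 20.5 and 11.9 CPM in cluster 7, which held the mitotic genes Plk1 and Cdc20 among its leading genes. Asns was highest in cluster 3, at 253 CPM in PKCi and 210 CPM in control. That cluster was led by Psph and Asns, with Mthfd2, Psat1, Bcat1 and Shmt2 among its 10 leading genes. The highest ratio of Gdf15, 3.32 (3.09 to 3.58), was in cluster 4, led by Mmp3 and the hypoxia gene Adm, where it was at 115 CPM in PKCi and 34.6 CPM in control.

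**Figure D3:**
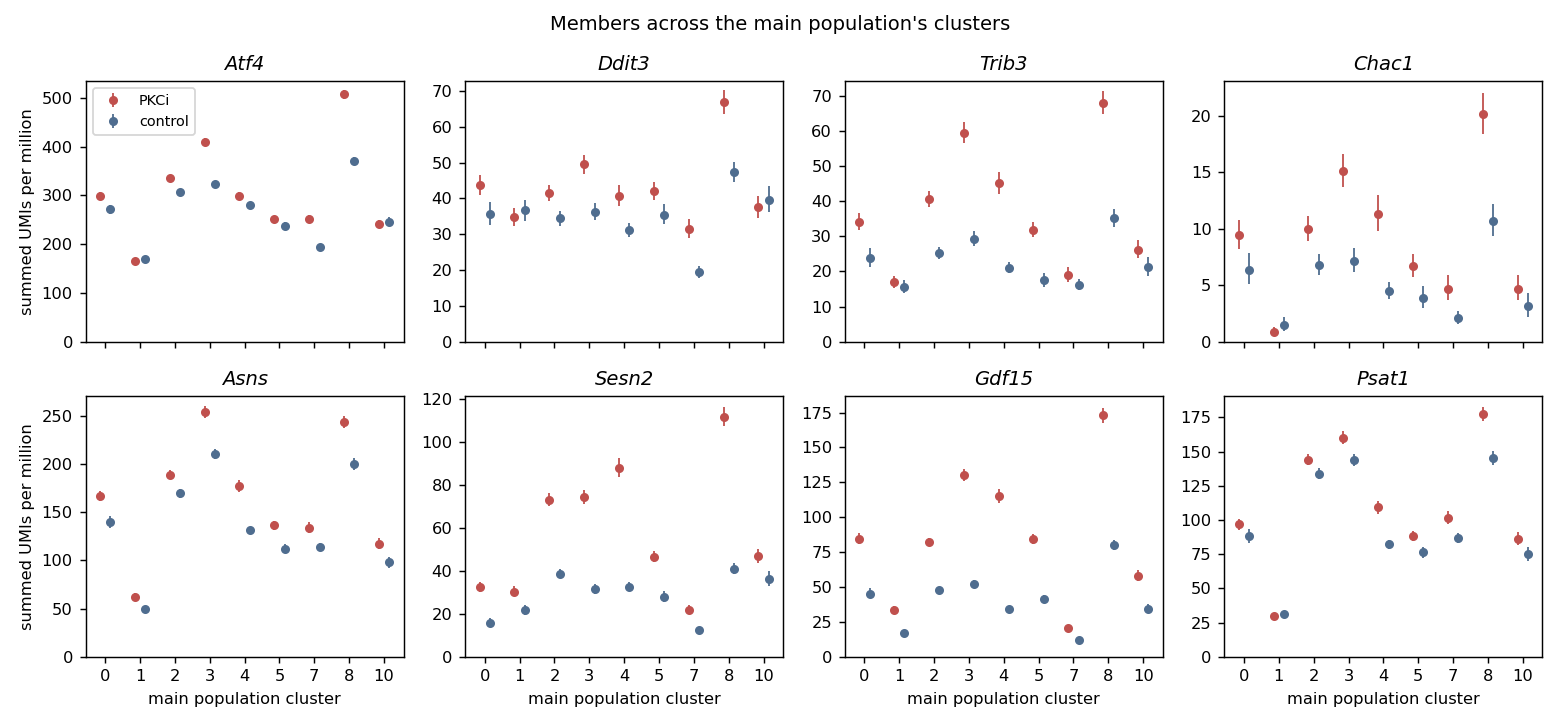
Level of each detected member (vertical axis, UMIs per 1e6 UMIs of the cluster's sum, axis from 0) in the 9 main population clusters with at least 50 cells in each library, PKCi left of control in each pair, bars being exact Poisson 95% intervals. Cluster 8 is highest for all but Asns, and Gdf15 in PKCi lies above control in each of the 9.

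Within each library, cells of the main population that held more of a member also held more of the others. Over the 28 pairs of detected members, the Pearson correlation of log(1 + UMIs) across thinned cells had a median of 0.226 in PKCi (range 0.101 to 0.340, 5067 cells) and 0.184 in control (range 0.0569 to 0.271, 4761 cells). All 28 pairs were positive in both libraries. For all pairs among 9206 genes with a UMI in at least 5% of cells the median was 0.00469 in PKCi and 0.00459 in control, and 0.0415% and 0.0792% of them exceeded the members' median. These genes were not matched to the members for the share of cells that hold them, which limits the comparison. Chac1, found in 4.37% of control cells, is not among them, while its pairs are in the members' median. The members were also chosen with earlier results of these libraries known, so nothing is read from the shares of pairs. The cells share a library and were brought to 1 depth, but their sum of member UMIs still correlated with the log of their original depth (0.317 in PKCi, 0.236 in control). With log depth taken out the median of the pairs was 0.196 in PKCi and 0.181 in control.

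The strongest pairs were Asns with Psat1 (0.340 in PKCi, 0.271 in control) and Trib3 with Gdf15 (0.339 and 0.260). Ddit3 and Chac1 had the weakest medians with the other members in PKCi, 0.175 and 0.169, and Psat1 and Chac1 in control, 0.132 and 0.134. Gdf15 had the highest median in both libraries, 0.285 in PKCi and 0.223 in control. When each member was set against the sum of the others, Asns had a correlation of 0.418 in PKCi and 0.311 in control, and 1 gene of 9199 stood above it in each library. The choice of the members limits this position in the same way. In the 10% of cells with the most UMIs of the other members, Chac1 was 4.39 times as high as in the rest in PKCi and 7.49 times in control, and Atf4 2.12 and 2.15 times.

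**Figure D4:**
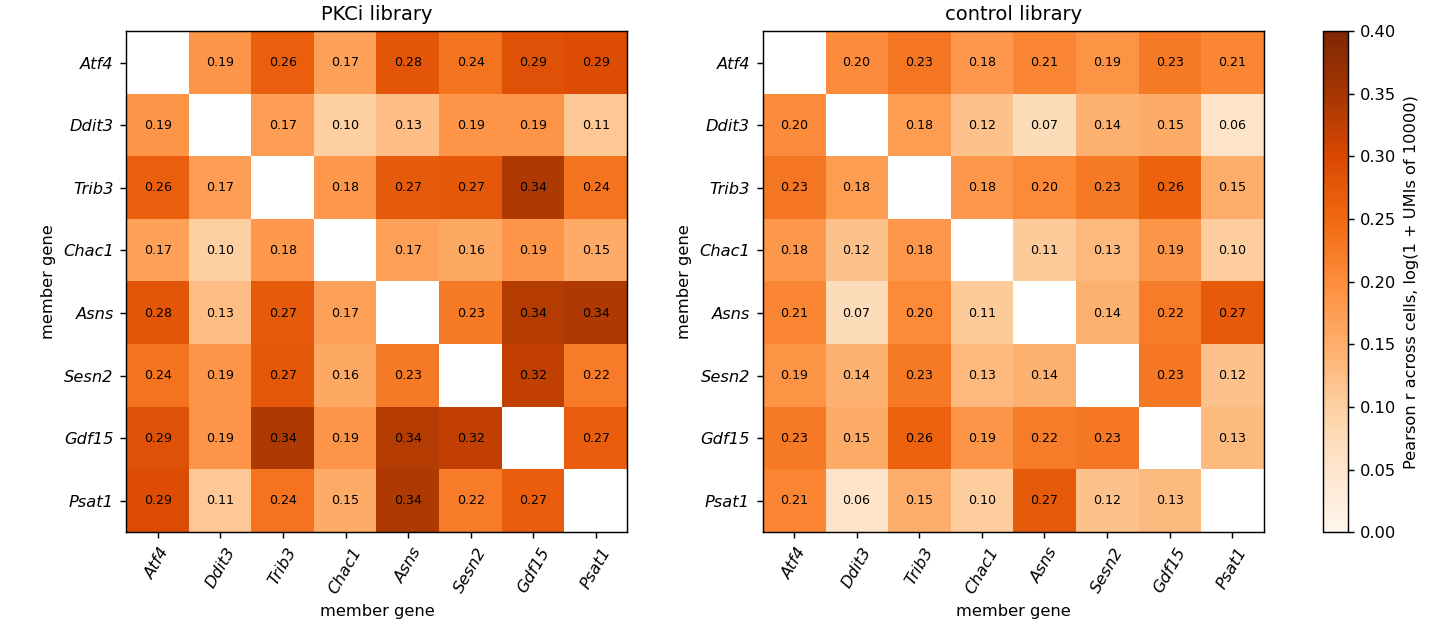
Pearson correlation across main population cells for each pair of detected members, PKCi library on the left (5067 cells) and control library on the right (4761 cells), on log(1 + UMIs) after thinning to 10000 UMIs. All 28 values are positive in both libraries, with medians of 0.226 and 0.184.

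The genes outside the members that ran most closely with their sum were led by Mthfd2, a mitochondrial folate enzyme, at 0.549 in PKCi and 0.425 in control. Ncl, Nars, Hspa9, Nop58, Snhg1, Hspd1 and Gars followed, with means of both libraries between 0.360 and 0.396. Nars and Gars charge tRNA, Hspa9 and Hspd1 are mitochondrial chaperones, and Ncl and Nop58 encode nucleolar proteins. Their ratios between the libraries were smaller than those of Gdf15 and Sesn2: Mthfd2 was at 167 CPM in PKCi and 118 CPM in control, a ratio of 1.41, and Nop58 was at 457 and 478 CPM, a ratio of 0.956.

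Summed lists were set against the member sum in the same way. The sum adds UMIs, so it leans on the members with high levels. In PKCi, Atf4, Asns and Psat1 gave means of 2.89, 1.57 and 1.03 of 7.74 member UMIs per thinned cell. The member sum had a correlation of 0.616 in PKCi and 0.482 in control with serine, one-carbon and amino acid enzymes, and of 0.599 and 0.489 with cytosolic aminoacyl-tRNA synthetases. It was 0.517 and 0.413 for amino acid transporters and 0.471 and 0.366 for mitochondrial chaperones and proteases. For the ER chaperones, which ATF6 and XBP1 control, it was 0.0527 in PKCi and -0.0550 in control. The immediate early genes differed in sign between the libraries, with -0.197 in PKCi and 0.0236 in control. By member, their correlation ran from -0.216 for Psat1 to 0.0111 for Ddit3 in PKCi. In control it ran from -0.0760 for Psat1 to 0.104 for Ddit3, so the value of the sum does not stand for each member. The G2/M genes had 0.329 and 0.263, so the member sum also moved with cell cycle genes. Pair correlations were also computed among cells with fewer than 3 detected G2/M genes, as another setting. Beyond that, the part of these genes in the pair correlations was not tested.

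The genes upstream of ATF4 differed little between the libraries. None of the 4 eIF2alpha kinases in the main population reached 1.5-fold in either direction, with a median log2 ratio of -0.02. Eif2ak3, the kinase PERK of the ER membrane, was at 13.02 CPM in PKCi and 12.92 CPM in control, and Eif2ak4, the amino acid sensor GCN2, at 36.7 and 33.8 CPM. Of 14 genes for eIF2, eIF2B, the phosphatase subunits, GCN2 regulators and the mitochondrial relay to the kinase HRI, 0 passed in either direction, with a median of -0.05. The largest ratio among them was that of Ppp1r15a, the inducible subunit GADD34 that ends the response, at 72.8 CPM in PKCi and 57.6 CPM in control (1.26).

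Among 12 ATF4 partners and related factors, 4 were at least 1.5-fold higher in PKCi and 1 lower, with a median log2 ratio of 0.34. Atf3, a bZIP repressor, was at 253 CPM in PKCi and 148 CPM in control. Nupr1, a stress-induced chromatin protein, was at 207 and 127 CPM, and Atf5 at 41.7 and 27.0 CPM. The fourth, named after its value was seen, was Cebpa at 1.31 and 0.865 CPM. Cebpd was the lower one, at 5.73 CPM in PKCi and 19.0 CPM in control, and Cebpb was at 213 and 250 CPM. Atf3 is also an immediate early gene, and 3 of 14 genes of that list were higher in PKCi (Fos 851 and 476 CPM, Zfp36 194 and 117 CPM, Fosb 361 and 218 CPM).

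The metabolic branch was split by gene. Of 14 measured serine, one-carbon and amino acid enzymes, 4 were higher and 0 lower, with a median log2 ratio of 0.44. Cth, which makes cysteine from cystathionine, was at 13.3 CPM in PKCi and 5.37 CPM in control, a ratio of 2.47. Aldh1l2, a mitochondrial folate enzyme, was at 19.7 and 9.22 CPM, and Psph, the last enzyme of serine synthesis, at 75.8 and 47.8 CPM. Gpt2, an alanine aminotransferase named after its value was seen, was at 18.8 and 12.5 CPM. Phgdh, the first enzyme of that pathway, was at 349 and 286 CPM, a ratio of 1.22. Serine synthesis thus had 3 genes over 1, and only Psph of them reached 1.5-fold.

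Among 9 measured amino acid transporters, 1 was higher and 1 lower. Slc7a3, a carrier of arginine and lysine, was at 18.0 CPM in PKCi and 9.11 CPM in control. Slc7a11, the cystine carrier that ATF4 and NRF2 both activate, was at 4.18 CPM in PKCi and 7.11 CPM in control, a ratio of 0.588. None of the 20 tRNA synthetases reached 1.5-fold, but 16 of them were over 1, and the median was 0.16. Wars had the largest ratio, 1.34, at 35.9 CPM in PKCi and 26.7 CPM in control.

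Of 21 other reported targets of ATF4 or CHOP, 5 were higher and 0 lower, with a median of 0.21. Herpud1, an ER protein of the degradation pathway, was at 64.4 CPM in PKCi and 39.2 CPM in control. Soat2 (1.22 and 0.653 CPM) and Fgf21 (0.399 and 0.237 CPM), a hormone of fasting, were at low levels. Avil (2.17 and 1.33 CPM) and the death gene Pmaip1 (0.3501 and 0.223 CPM) were the others, named after their values were seen. Ero1l, a CHOP target that is also induced by hypoxia, was at 67.7 CPM in PKCi and 95.3 CPM in control, a ratio of 0.711.

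Lists of other stress programmes were read in the same way. Of 18 ER chaperone and ER-associated degradation genes 0 passed in either direction, and Hspa5, the chaperone BiP, was at 550 CPM in PKCi and 506 CPM in control. Of 11 p53 targets 1 was higher, Eda2r at 2.65 CPM in PKCi and 1.22 CPM in control; p53 is a known activator of Sesn2 and Gdf15 as well. Of 11 NRF2 targets 0 were higher and 2 lower, Gclm at 72.6 CPM in PKCi and 122 CPM in control and Hmox1 at 9.70 and 40.0 CPM. Of 18 hypoxia and glycolysis genes 0 were higher and 4 lower, with a median of -0.38, and Adm was at 31.1 CPM in PKCi and 67.5 CPM in control. Bnip3 was at 28.3 and 54.4 CPM, and Slc2a1 (68.9 and 104.6 CPM) and Car9 (0.900 and 1.57 CPM), named after their values were seen, were the others. The 22 G2/M and 22 S phase genes had medians of -0.03 and -0.05, with 0 past 1.5-fold. Among 9 heat shock genes that rise when tissue is dissociated, 3 were lower in PKCi, with Hspa1b at 11.6 CPM in PKCi and 26.1 CPM in control, Hspb1 at 0.151 and 1.251 CPM, and Hspa1a, named after its value was seen, at 6.46 and 10.5 CPM. The part of hypoxia, dissociation or depth in the member values was not tested.

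Genes around the members' own functions were close to even. Of 16 genes of mTORC1 amino acid sensing, in which sestrin 2 acts, 0 passed 1.5-fold, with a median of -0.04. Of 7 measured genes of the glutathione cycle, on which the Chac1 enzyme acts, Gclm was lower and 0 were higher. Of 8 measured receptors and ligands for GDF15 and VLDLR 0 passed, and Lrp8, which encodes a reelin receptor, was at 22.5 CPM in PKCi and 28.2 CPM in control. Of 9 mitochondrial chaperones and proteases 0 passed, and Lonp1, a mitochondrial protease under ATF4, had the largest ratio, 1.30.

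Krt8 and Rhox5, genes that mark the main population, were also counted in the other classes. Krt8 was at 7.33% of its main population level in PKCi monocyte-like cells and 6.88% in control ones, and Rhox5 at 7.95% and 8.11%. In macrophage-like cells Krt8 was at 8.89% and 8.62%. In neutrophil-like cells it was at 57.7% in PKCi and 31.9% in control, at median depths of 2061 and 3408 UMIs per cell, and Rhox5 at 47.3% and 43.8%. Member levels at or below these shares of the main population cannot be told apart from main population RNA, and the source of that RNA was not tested.

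Monocyte-like cells had higher Asns and Psat1 in PKCi and lower Gdf15. Asns was at 38.0 CPM in PKCi and 14.7 CPM in control, a ratio of 2.59 (1.97 to 3.44), equal to 22.4% and 10.2% of the main population. Psat1 was at 37.8 CPM in PKCi and 17.3 CPM in control (2.19, 1.68 to 2.86). Trib3 was at 9.81 CPM in PKCi (40 UMIs) and 5.01 CPM in control (27 UMIs). Gdf15 was at 16.9 CPM in PKCi and 32.5 CPM in control (0.521, 0.388 to 0.692). Its UMIs lay in 51 of 496 PKCi cells and 49 of 572 control cells, and the 5 highest cells held 24.6% of them in PKCi and 45.7% in control, so the class sums rest on few cells. With cells assigned by markers alone its log2 ratio was 0.13. Atf4 was at 165 CPM in PKCi and 221 CPM in control (0.746), Ddit3 at 35.8 and 38.2 CPM, and Sesn2 at 17.7 and 15.8 CPM.

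Of the 7 members measured in monocyte-like cells, 3 were higher and 1 lower, where 10.8% and 5.77% of 8891 genes were. The median log2 ratio was 0.16 over the 7 and 0.14 over all genes. The synthetases differed from the main population in count, with 9 of 20 past 1.5-fold in PKCi and 0 lower (median 0.43), and all 3 serine synthesis genes were higher. That difference between the classes was not tested. Of 17 measured S phase genes 6 were higher in these PKCi cells.

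Macrophage-like cells had the highest Gdf15 level of any class in both libraries. It was at 137 CPM in PKCi and 173 CPM in control, equal to 152% and 423% of the main population level. Thinned to 5000 UMIs, 24.8% of PKCi cells (20.9% to 29.0%) and 24.5% of control cells (18.0% to 32.1%) held it. Krt8, which these cells should lack, was in 17.98% of PKCi and 16.8% of control cells. The 5 highest cells carried 16.3% of the Gdf15 UMIs in PKCi and 40.1% in control, and the ratio was 0.793. Its log2 ratio of -0.34 turned to 0.017 at a mitochondrial limit of 10% and 0.11 with markers alone, and to 0.092 at Leiden resolution 0.5, where the class also held the monocyte-like cells. Asns was at 26.0 CPM in PKCi and 9.99 CPM in control, Sesn2 at 16.8 and 7.81 CPM, and Trib3 at 7.96 CPM (52 UMIs) and 2.19 CPM (7 UMIs). In control, Asns at 6.97% and Trib3 at 9.40% of the main population were near the share of Krt8.

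Of the 7 members measured in macrophage-like cells, 3 were higher and 0 lower, where 8.78% and 5.88% of 9579 genes were. The count was 1, Asns, of 5 measured members when cells were thinned to 5000 UMIs. Psat1 was at 32.4 CPM in PKCi and 30.3 CPM in control, and Atf4 at 185 and 157 CPM, a log2 ratio of 0.24 that was -0.0897 at Leiden resolution 0.5, in the class that also held the monocyte-like cells. The cell cycle lists moved in these cells, with 18 of 22 G2/M genes lower in PKCi, and 7 of 14 immediate early genes were higher; their part in the member values was not tested.

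Neutrophil-like cells had the highest Ddit3 of any class, at 109 CPM in PKCi and 121 CPM in control, more than the main population held. CHOP is known in myeloid cells as a partner of C/EBP factors. Sesn2 was at 74.6 CPM in PKCi and 60.01 CPM in control, at 123% and 204% of the main population, and its ratio was 1.24 (0.902 to 1.71). Asns was at 111 CPM in PKCi and 43.0 CPM in control, Psat1 at 76.7 and 30.9 CPM, Gdf15 at 45.8 and 12.1 CPM and Trib3 at 27.7 and 14.5 CPM. Gdf15 was at 50.7% and 29.6% of the main population, below the Krt8 shares of 57.7% and 31.9%. Asns and Psat1 in control were also below that share. These levels cannot be told apart from main population RNA. Asns (65.3%) and Psat1 (66.9%) in PKCi, and Trib3 in both libraries (70.1% and 62.6%), were above it. The 5 highest PKCi cells carried 60.6% of the Asns UMIs, 56.9% of the Psat1 UMIs, 53.5% of the Gdf15 UMIs and 76.9% of the Trib3 UMIs.

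Those 4 genes were the higher ones of 7 measured members in neutrophil-like cells, where 23.8% of 5986 genes were higher and 6.83% lower. The median log2 ratio of the 7 was 0.93 and that of all genes 0.31. Krt8 itself was at 278 CPM in PKCi and 121 CPM in control in these cells, Rhox5 at 222 and 236 CPM, and 16 of 21 measured G2/M genes were higher in PKCi. The count was 0 when each cell was weighted equally, and 0 when the profile of the main population was subtracted at the Krt8 rate. Atf4 was at 237 CPM in PKCi and 178 CPM in control, a log2 ratio of 0.41 that was -0.12 with per-cell means and -0.74 after the subtraction. The part of main population RNA in these differences was not tested.

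Over the 9 classes, the main population had the highest Atf4, Trib3, Asns and Psat1 in both libraries. Its Atf4 level was 316 CPM in PKCi, against 121 CPM in NK-like cells, the lowest class. In control it was 273 CPM, with an interval that overlapped that of NK-like cells at 234 CPM, and endothelial-like cells were lowest at 103 CPM. Most neighbours in these orders overlapped: 6 of 8 neighbouring pairs in PKCi and 8 of 8 in control for Atf4, and 6 in both libraries for Gdf15. Chac1 was highest in the main population of PKCi, and in control in NK-like cells on 7 UMIs. Trib3 had 0 UMIs in T-like cells of both libraries, while their Krt8 was at 7.14% and 14.0% of the main population. Dendritic-like cells had Sesn2 at 58.8 CPM in PKCi and 36.9 CPM in control (38 and 9 UMIs), close to the main population's 60.6 and 29.5 CPM.

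**Figure D5:**
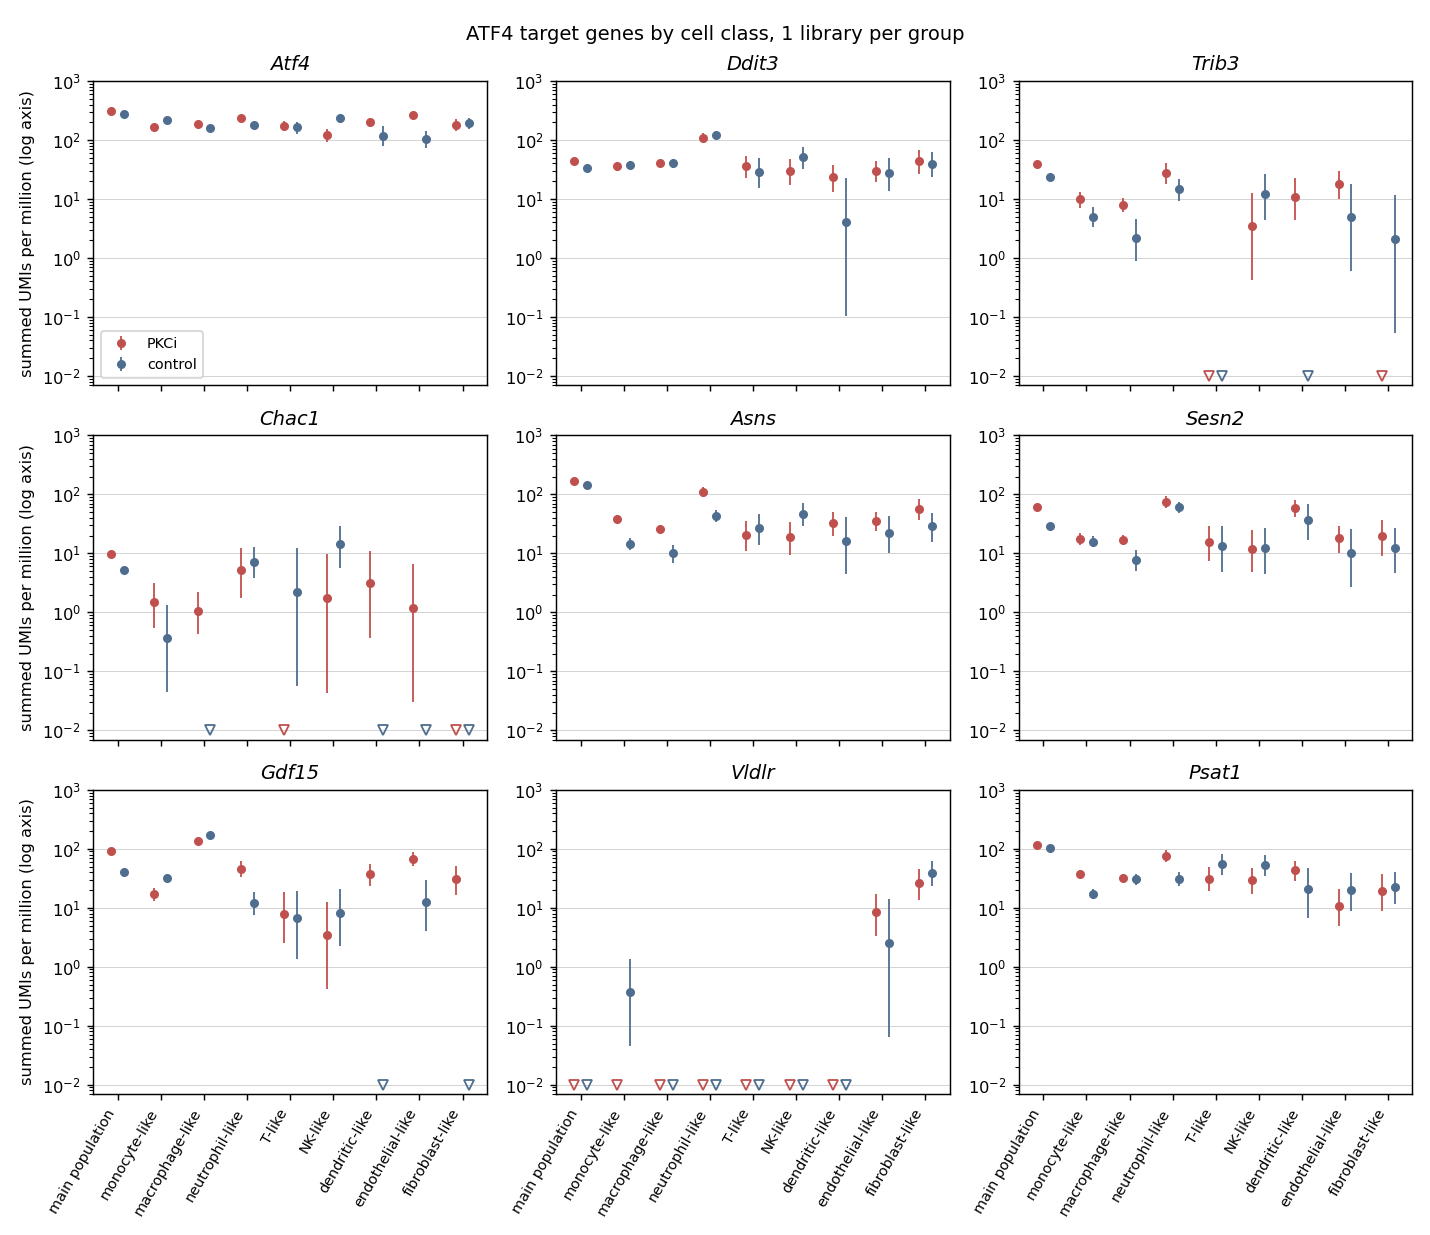
Level of each member by cell class (vertical axis, CPM, log scale) with exact Poisson 95% intervals, PKCi left of control in each pair, and open triangles at the foot for sums with 0 UMIs. Gdf15 is highest in macrophage-like cells (137 and 173 CPM), Ddit3 in neutrophil-like cells (109 and 121 CPM), and Vldlr has no UMI in the main population.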

How the data were processed

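Droplet single-cell RNA (10x 3' v3.1, per the labels' protocols) was measured in 1 PKCi and 1 control library. The values are raw UMI counts as the authors deposited them, 1 for each gene and barcode, and the file headers record Cell Ranger 7.0.0. GRCm38 and Seurat are named in the submitters' processing notes. Class sums held 243916 to 205658826 UMIs, and no test across animals was possible.

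Barcodes under 500 genes (200 PKCi, 247 control) or over 20% mitochondrial UMIs (169 and 243) were removed, and Scrublet in scanpy 1.11.5 at an expected rate of 6% called 132 and 111 doublets (1.83% and 1.74%), which were removed. Cells were clustered together on 2000 variable genes, 30 components and 15 neighbours (Leiden, resolution 1.0), and mixed clusters were split at 0.5. A class name needed a marker score of at least 0.35 and 3 markers at 50 CPM. The main population needed Krt8 at 250 CPM and fewer than 3 such markers of any class. These thresholds were set after the data had been seen, and 272 PKCi and 198 control cells stayed unnamed. UMIs were summed by class and library. Ratios have exact conditional 95% intervals, and a gene was called at 1.5-fold with an interval apart from 1, at 50 UMIs or more. Log2 ratios of list genes, and medians of log2 ratios over genes, had 0.5 UMI added to each sum. The log2 ratios given for single members had none added. All 9 members are named, and of each list up to 3 genes with the highest and 2 with the lowest ratio in the main population. A list gene that this rule picks is not reported here. The likeness genes are the 8 with the highest mean correlation with the member sum. Members and lists were chosen with earlier results of these data known. The calling rule and the thinning were tested on simulated data. Other settings of scaling, weighting, thinning, filters and clustering were tried.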

Additional observations from a re-analysis of the deposited data

Results flagged for a closer look

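The log2 ratios of PKCi over control of Atf4 and Gdf15 pointed in opposite directions in different cell classes, and the difference between the classes was not tested. For Atf4 the ratio was 0.21 in the main population, -0.42 in monocyte-like cells, 0.24 in macrophage-like cells and 0.41 in neutrophil-like cells. For Gdf15 it was 1.14 in the main population, -0.94 in monocyte-like cells, -0.34 in macrophage-like cells and 1.92 in neutrophil-like cells. The Gdf15 levels behind the value in neutrophil-like cells were below the Krt8 share of the main population in both libraries. They cannot be told apart from main population RNA. The directions of Atf4 and Gdf15 did not hold in every setting. The Atf4 value turned negative in 4 other settings in neutrophil-like cells, between -0.74 and -0.11, and in 1 each in the main population (-0.048) and in macrophage-like cells (-0.0897, in a class merged with the monocyte-like cells). The Gdf15 value turned positive in 1 setting in monocyte-like cells (0.13) and in 3 in macrophage-like cells (0.017 to 0.11).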

How the results depend on the processing

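In the main population the count of 4 higher members held the same 4 genes under the other settings tried, apart from 3 without Trib3 in cells with fewer than 3 G2/M genes and 5 with Ddit3 at a lower fold. The share of all genes called was taken only under the main settings. Counts under the other settings, here and above, have no such share beside them, and nothing is read from their size. The count of 3 in macrophage-like cells was 1 when cells were thinned to 5000 UMIs. The count of 4 in neutrophil-like cells was 0 with the mean of per-cell CPM, 0 with thinning, 2 with doublet calls kept, 2 with cells assigned by markers alone and 0 with the main population profile subtracted. Thinning to 5000 UMIs left 19 PKCi and 70 control neutrophil-like cells. Members can fall under 50 UMIs there, so that 0 cannot be read as a changed result. The median pair correlation (0.226 in PKCi, 0.184 in control) was 0.141 and 0.113 at 5000 UMIs and 0.380 and 0.326 without thinning. It was 0.155 in control by Spearman, 0.196 in PKCi with log depth removed, and 0.168 in PKCi and 0.153 in control with cells centred within clusters; the settings with log depth removed or cells centred were chosen after seeing the data. Log2 ratios turned in sign as follows. Atf4 was -0.048 in main population cells with fewer than 3 G2/M genes, -0.0897 in macrophage-like cells at Leiden resolution 0.5, where the class also held the monocyte-like cells, and in neutrophil-like cells -0.12 with per-cell means, -0.11 with doublets kept, -0.26 by markers alone and -0.74 after subtraction. Gdf15 was 0.13 in monocyte-like cells by markers alone, and in macrophage-like cells 0.017 at a mitochondrial limit of 10%, 0.092 in that merged class at resolution 0.5 and 0.11 by markers alone. In neutrophil-like cells Trib3 was -0.94 with per-cell means, -0.45 by markers alone and -0.54 after subtraction, and Asns was -0.059 by markers alone. The cause was not tested. Monocyte-like cells gave no value at resolution 0.5, where they merged with macrophage-like cells. Depth limits Chac1, which had under 50 UMIs in each class outside the main population and was not measured there. Vldlr had under 50 UMIs in every class, with 0 in the main population, and its ratio was measured in none. No paired analysis was possible because each group is 1 library.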

Other observations

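The genes on both sides of Vldlr on chromosome 19 were read in the main population, where Vldlr had no UMI. Smarca2, which encodes a remodelling ATPase and lies before Vldlr, was at 0.209 CPM in PKCi and 0.257 CPM in control there, against 78.2 and 95.5 CPM in fibroblast-like cells of the same tumours. Kcnv2, the next gene after Vldlr, was at 0.0146 and 0.0247 CPM. Pum3 and Rfx3, which follow it, were at 73.9 and 93.9 CPM in PKCi and 79.4 and 83.0 CPM in control. These genes were chosen for their position after the value of Vldlr had been seen.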
